A study of Drosophila melanogaster with 3 samples.

Results

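The JAK/STAT pathway of Drosophila melanogaster was examined for chromatin regions bound by the Iroquois homeodomain protein Caupolican (caup), which helps to pattern the embryo and the imaginal discs. The pathway was represented by 8 of the 13945 protein-coding genes on the chromosome arms. They were the ligand genes upd1, upd2 and upd3, the receptor gene dome, the Janus kinase gene hop, the transcription factor gene Stat92E, and the negative regulators Socs36E and Ptp61F. They were chosen by name. A bound region was counted for a gene when its summit, the position of the highest signal in the region, lay in the gene body or within 5 kb of either end. Such a count places a region near a gene and does not show that the region acts on it.

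The study profiled 1 group of 3 biological replicates of whole embryos aged 0 to 24 h, with both sexes pooled. All came from 1 transgenic line that carries caup fused at its C-terminus to a green fluorescent protein (caup-eGFP). Chromatin was sheared by sonication to a stated range of 200 to 800 bp and immunoprecipitated with an antibody against the tag, followed by sequencing (ChIP-seq). Whole embryos of all stages were used, so the signal is a mixture over every cell type and age in the collection, and the group has no comparison group in the series: every statement below is a description, with no test.

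Signalling through this pathway starts when a secreted Unpaired ligand binds the cytokine receptor Domeless. The receptor-associated kinase Hopscotch then phosphorylates Stat92E, the STAT protein of the fly, which enters the nucleus and binds DNA at palindromes of TTC and GAA. In the fly embryo the pathway is known for its part in segmentation and in shaping the trachea, gut and gonad, and Socs36E is both a target and a brake of the pathway. The tyrosine phosphatase Ptp61F acts against the kinase and Stat92E.

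Each replicate has a deposited list of 30000 regions, each with a signal value, and a further list of 30000 regions was made from the pooled replicates. The authors' optimal set, their reproducible list, holds 6056 peaks and is the same as the 6056 pooled regions of highest signal, with values of 209 to 6496 and a median of 333. Signal ran from 20.9 to 2337 in replicate 1, from 16.6 to 1684 in replicate 2 and from 23.5 to 2555 in replicate 3. These scales differ and are not explained in the sources, so replicates were compared by rank, with rank 1 for the region of highest signal. The number of reads behind each value is unknown.

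Optimal peaks were found in the windows of the STAT gene and of both negative regulators, and in none of the windows of the ligand, receptor and kinase genes. Stat92E had 4, Socs36E had 7 and Ptp61F had 8, while upd1, upd2, upd3, dome and hop had none. Thus 3 of the 8 genes (37.5%) had an optimal summit in the window, against 54.4% of all 13945 protein-coding genes. With 8 genes the order of these shares depended on the rule. It was again 3 of 8 genes (37.5%), against 34.1% of all, with windows of 1 kb, and 3 of 8, against 24.1% of all, when a summit counted only for the gene with the nearest start. With windows of 10 kb to either side it was 6 of 8 genes, against 68.1% of all, with upd3, dome and hop added. All 5 genes without a peak lie on the X chromosome, and all 3 with a peak lie on autosomes. Over all protein-coding genes the shares were 52.6% of 2196 genes on X and 54.8% of 11749 genes on the other arms, which is a difference of a few percentage points only. The same division also runs by window length. The windows were 12.6 to 17.5 kb long at the 5 genes without a peak and 23.7 to 143 kb at the 3 with a peak. Whether the division goes with role, chromosome or length was not tested.

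All 8 genes had at least 1 region in the longer pooled list, as did 81.6% of all protein-coding genes. The replicates gave the same division as the optimal set, which was made from these replicates and is not independent of them. In none of the 3 replicates did any of the 5 X-linked genes hold a region among that replicate's 6056 strongest, whereas Stat92E, Socs36E and Ptp61F held one in every replicate. Over all protein-coding genes 63.2% had such a region in at least 1 replicate and 46.6% in all 3. Ordered by the median over replicates of the rank of the strongest region in the window, the genes ran from Stat92E at 422 through Socs36E at 1017, Ptp61F at 1656, upd2 at 7250, hop at 7377, dome at 8428 and upd3 at 10056 to upd1, which had a region in 1 replicate list alone. The rank ranges of upd2 and hop overlapped, as did those of hop and dome and those of dome and upd3, so these neighbours were not set apart by the replicates. The ranges of Stat92E, Socs36E and Ptp61F did not overlap with that of the next gene in the order. These ranks are not adjusted for window length, and a longer window has more places for a strong region. The window was 143 kb long at Ptp61F and 12.6 to 17.5 kb at the 5 X-linked genes.

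**Figure D1:**
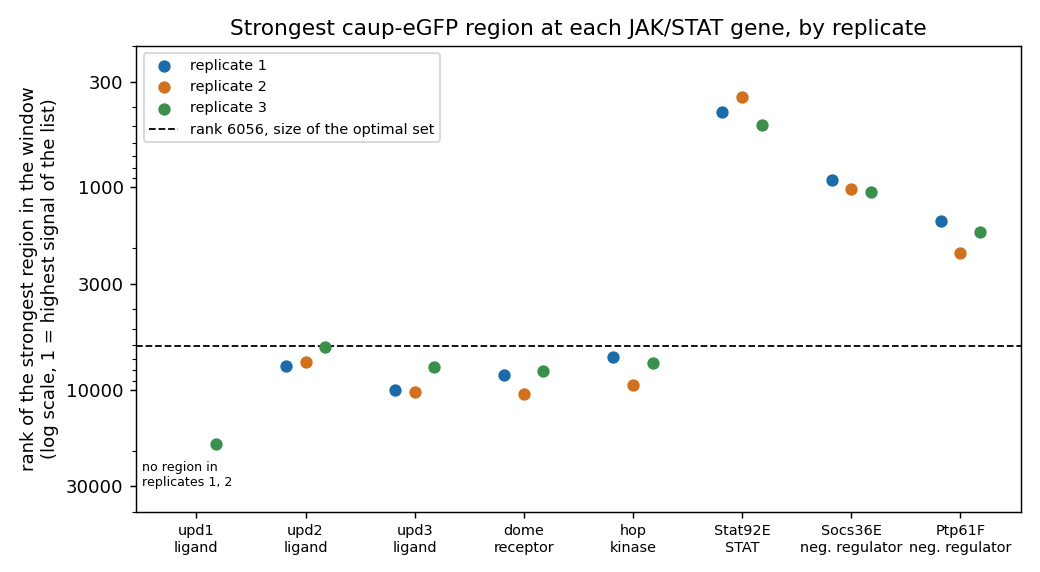
Rank of the strongest caup-eGFP region in the gene body plus 5 kb of each JAK/STAT gene, on a log axis with rank 1 at the top, where each point is 1 of 3 replicates and the dashed line marks rank 6056, the size of the optimal set. Stat92E, Socs36E and Ptp61F sit above the line in all 3 replicates, and the other genes sit below it, with upd1 shown for replicate 3 alone because no region of replicates 1 and 2 lay in its window. Ranks are not adjusted for window length.

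The 3 ligand genes lie in a cluster on X, in the order upd2, upd3 and upd1 with other genes between them, and encode secreted cytokine-like proteins that bind Domeless. None had an optimal peak in its own window. At upd1 (FBgn0004956, chrX:18305354-18309291, minus strand), the ligand gene with striped expression in the early embryo, the pooled list held 1 region, at chrX:18312983-18313402 upstream of the gene, with a signal of 64.5 at rank 22990. Replicates 1 and 2 had no region in the upd1 window, and the stronger of 2 regions in replicate 3 had a signal of 36.5 at rank 18592.

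At upd2 (FBgn0030904, chrX:18240654-18243284, minus strand), which encodes a ligand also known for its release from the fat body, the strongest pooled region had a signal of 171 at rank 7788 and lay beyond the gene's 3′ end. The strongest region of each replicate had a signal of 65.1 in replicate 1, 47.6 in replicate 2 and 89.0 in replicate 3. Their ranks were 7601, 7250 and 6160, and the last of these lies just outside the 6056 strongest. They were not all at the same site. Those of replicates 1 and 2 lay over the strongest pooled region, where replicate 3 had a signal of 55.4 at rank 11416. That of replicate 3 lay farther past the 3′ end, over a pooled region at rank 7802, where replicates 1 and 2 had ranks of 10867 and 8228. A region 402 bp upstream of the upd2 start had a pooled signal of 74.9 at rank 19579, and among the replicates it was found in replicate 1 only.

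At upd3 (FBgn0053542, chrX:18277233-18284596, plus strand), the ligand gene best known for its induction by wounding and infection, the strongest pooled region lay in an intron with a signal of 150 at rank 9148. The strongest region in the window had a signal of 52.5 in replicate 1, 36.8 in replicate 2 and 75.4 in replicate 3, at ranks 10056, 10194 and 7694. In replicates 2 and 3 it lay over the intronic site, and in replicate 1 over another site, in an exon. All 3 ligand genes were thus weak in every replicate, and upd1 was the weakest.

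The stretch from the left end of upd2 to the right end of upd1 spans 68.6 kb (chrX:18240654-18309291) and holds 1 optimal peak, which is 14.6 per Mb against 42.8 per Mb over the whole of X. Over the pooled list the density was 204 regions per Mb, against 225 per Mb on X. The 1 peak, at chrX:18294128-18294341, had a pooled signal of 545 at rank 1334, above 78% of optimal peaks. Its signal was 182 in replicate 1, 117 in replicate 2 and 240 in replicate 3, and its ranks were 1409, 1810 and 1275. It was therefore among the strongest regions of all replicates, and each replicate had no other region of its top 6056 in the stretch. The summit is intergenic, 9.63 kb past the 3′ end of upd3 and 11.1 kb past the 3′ end of upd1. The nearest annotated start, 1842 bp away, is that of the noncoding RNA gene lncRNA:CR15061. The start sites of upd1, upd3 and upd2 are 15.1 kb, 17 kb and 50.9 kb from the summit. The 151 bp around this summit are shown because it was the only optimal peak among the ligand genes; none of the motifs searched below was found within 100 bp of it, and the sequence is given on the plus strand of the release 6 (dm6) genome.

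upd interval, chrX:18294147-18294297: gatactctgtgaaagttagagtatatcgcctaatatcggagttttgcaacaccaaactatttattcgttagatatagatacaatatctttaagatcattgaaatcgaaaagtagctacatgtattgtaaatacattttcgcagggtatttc

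**Figure D2:**
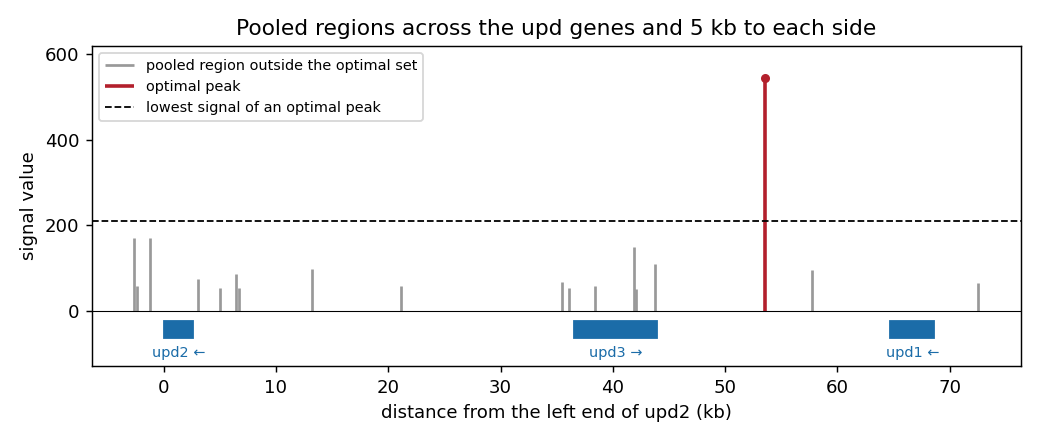
Signal value of pooled caup-eGFP regions along the upd genes and 5 kb to each side, plotted against the distance from the left end of upd2, with gene bodies as blue bars and arrows for the direction of transcription. The optimal peak, with a signal of 545, stands between upd3 and upd1, and the grey regions stay under the dashed line at 209, the lowest signal of an optimal peak.

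At dome (FBgn0043903, chrX:19676061-19683518, minus strand), which encodes the receptor, the pooled list held 1 region, at chrX:19683233-19683652. Its summit lay in the first part of the gene, 75 bp from the start site, with a signal of 140 at rank 9871. The replicate regions over this site had signals of 25.8, 29.9 and 73.0 in replicates 1, 2 and 3, at ranks 23577, 13467 and 8028. The start of dome was thus a listed but weak region in every replicate, and replicate 3 placed it far higher than replicate 1. In replicates 1 and 2 the strongest region of the dome window was at another site. It had a signal of 60.1 at rank 8428 in replicate 1 and of 35.9 at rank 10512 in replicate 2. In replicate 3 the start site was the strongest.

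Stronger peaks lay on both sides of the dome window. To the left, 7.45 kb past the 3′ end of dome, an optimal peak at chrX:19668471-19668732 had a signal of 858 at rank 569, with its summit 864 bp from the start of the antisense RNA gene asRNA:CR44512. It falls in the window of et, the neighbouring gene for a short receptor-like protein that dampens the pathway. To the right, 9.87 kb from dome, a peak with a signal of 809 at rank 639 lay 115 bp from the start of Mer, the fly Merlin gene. Both are outside the rule for dome and were added when the window was widened to 10 kb, which held 3 optimal summits in all.

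At hop (FBgn0004864, chrX:11360930-11368098, minus strand), the gene for the Janus kinase, the pooled list held 9 regions, the strongest at chrX:11370706-11371125 with a signal of 150 at rank 9168. That region lay 2818 bp upstream of the hop start and 1251 bp from the start of dlg1, the gene of the septate junction protein Discs large. The strongest region of the window had a signal of 70.1 in replicate 1, 39.1 in replicate 2 and 78.0 in replicate 3, at ranks 6888, 9431 and 7377. These were different sites. In replicate 1 it was 49 bp from the start of dsh, the gene of the Wnt pathway protein Dishevelled, in replicate 2 it was 167 bp from the start of Tim8 and 180 bp upstream of that of hop, and in replicate 3 it was 57 bp from the start of Pa1. The site near the Tim8 and hop starts had a pooled signal of 69.9 at rank 21075 and no region in replicates 1 and 3. In the wider surroundings of hop, an optimal peak with a signal of 816 at rank 634 lay 9.37 kb to the left, 948 bp from the start of CG1737.

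Stat92E (FBgn0016917, chr3R:20535323-20552311, minus strand), the transcription factor gene of the pathway, had the strongest peak of the 8 genes. The peak at chr3R:20550603-20550884 had a pooled signal of 1004 at rank 418, above 93.1% of optimal peaks. Its signal was 335 in replicate 1, 283 in replicate 2 and 390 in replicate 3, and its ranks were 422, 359 and 490, a narrow range. The summit lay 349 bp downstream of the inner of the 2 annotated Stat92E starts, in an untranslated exon of some transcripts. A second strong peak, at chr3R:20550041-20550333, had a pooled signal of 718 at rank 795. Its replicate signals were 251, 166 and 336 at ranks 742, 976 and 670. It lay in an intron, 970 bp downstream of the same start, and the pair of summits was 621 bp apart. For both, the nearest start of any gene was that of Stat92E itself.

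The other 2 Stat92E peaks lay upstream of the gene and were weaker. One, at chr3R:20554934-20555353, had a signal of 287 at rank 3787, with ranks of 13522, 3987 and 2125 in replicates 1, 2 and 3, so it was outside the top list of replicate 1. The other, at chr3R:20555875-20556074, had a signal of 308 at rank 3420, with ranks of 2283, 3782 and 4591. They lay 2833 bp and 3641 bp upstream of the outer Stat92E start and were nearer to the start of DPCoAC, which encodes a mitochondrial carrier, at 735 bp and 1543 bp. The Stat92E window was also isolated on its left, where the next optimal summit lay 207 kb from the gene. The strongest member region left outside the optimal set was also at Stat92E, with a signal of 204 at rank 6204.

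Of these peaks, 2 sequences are shown on the plus strand of release 6: the intronic one, as the second strongest of the gene, and the farther upstream one, which holds the palindrome ACATATGT. Capitals mark that palindrome, a form of the Iroquois half-site palindrome ACANNTGT, and CAGTGT, the other strand of ACACTG. The intronic sequence held none of the motifs searched.

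Stat92E intron, chr3R:20550062-20550212: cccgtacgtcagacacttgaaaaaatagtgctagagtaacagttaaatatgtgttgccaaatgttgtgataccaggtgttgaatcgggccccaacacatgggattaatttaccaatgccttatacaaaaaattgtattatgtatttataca

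Stat92E upstream, chr3R:20555877-20556027: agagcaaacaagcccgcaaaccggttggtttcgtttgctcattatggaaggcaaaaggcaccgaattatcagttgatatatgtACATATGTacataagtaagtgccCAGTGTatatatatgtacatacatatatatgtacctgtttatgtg

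Socs36E (FBgn0041184, chr2L:18138675-18152417, minus strand), the gene of a suppressor of cytokine signalling, had the densest cluster of peaks among the 8 genes, with 7 optimal summits in a window of 23.7 kb. This was 29.5 per 100 kb, against 14.8 at Stat92E, 5.6 at Ptp61F and 4.52 over the 6 chromosome arms. In the class of window lengths that holds Socs36E, from 16.5 to 24.6 kb, 13 of 1394 genes (0.933%) had at least as many. The strongest peak, at chr2L:18148900-18149142, had a pooled signal of 648 at rank 967. Its signal was 224 in replicate 1, 162 in replicate 2 and 248 in replicate 3, at ranks 916, 1017 and 1201. It lay in an intron, 3391 bp downstream of the Socs36E start, which was the nearest start of any gene.

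Of the other Socs36E peaks, 3 were intronic and had signals of 511, 305 and 331. They were nearest to the start of the noncoding gene lncRNA:CR44478, with the strongest of them 360 bp from it. One peak, at chr2L:18152246-18152665, sat on the Socs36E promoter, with its summit 39 bp upstream of the start. It was the weakest of the 7, with a signal of 278 at rank 4012 and ranks of 2180, 5079 and 6595 in replicates 1, 2 and 3. The remaining pair lay past the 3′ end of Socs36E and nearer to the start of kel, the gene of the ring canal protein Kelch. The peak at chr2L:18137901-18138056, 91 bp from the kel start, had a signal of 470 at rank 1693. The peak at chr2L:18136636-18136866, 1321 bp from the kel start, had a signal of 620 at rank 1053 and ranks of 1463, 1239 and 1054. By the nearest start, then, 2 of the 7 peaks belonged to Socs36E itself, among them its strongest and its weakest.

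The plus strand sequences of 2 Socs36E peaks of release 6 are shown because they carry STAT and Iroquois motif matches. In the intronic peak the capitals mark TTCTAAGAA, a STAT palindrome with 3 bases between TTC and GAA, and TTCCAGGGAA, one with 4 bases between them. Their centres lay 44 bp and 11 bp to the left of the summit. In the peak beyond the 3′ end the capitals mark ACATATGT, centred 24 bp to the left of the summit. It is the same 8 letters as in the upstream Stat92E peak.

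Socs36E intron, chr2L:18148951-18149101: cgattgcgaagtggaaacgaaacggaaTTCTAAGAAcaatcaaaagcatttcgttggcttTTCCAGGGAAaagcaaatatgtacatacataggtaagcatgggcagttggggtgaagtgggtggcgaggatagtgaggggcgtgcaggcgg

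Socs36E downstream, chr2L:18136687-18136837: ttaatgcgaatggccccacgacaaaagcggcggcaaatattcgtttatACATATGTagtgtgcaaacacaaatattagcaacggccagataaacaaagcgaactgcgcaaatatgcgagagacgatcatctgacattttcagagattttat

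Ptp61F (FBgn0267487, chr3L:1342493-1475257, minus strand), the phosphatase gene, is by far the longest of the 8, with a window of 143 kb and 4 annotated starts. Its 8 peaks were weaker than those of the other pair of genes, with a median signal of 248, against 513 at Stat92E and 470 at Socs36E. In the class of the longest windows, from 24.6 to 1976 kb, 76 of 1395 genes (5.45%) had at least 8 summits and 73.5% had 1 or more. The strongest peak, at chr3L:1368246-1368462, had a pooled signal of 494 at rank 1572. Its signal was 178 in replicate 1, 107 in replicate 2 and 206 in replicate 3, at ranks 1468, 2108 and 1656. It lay in an intron and 2323 bp from the start of ru, a rhomboid protease gene nested in the Ptp61F locus.

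Only 1 of the 8 Ptp61F peaks was nearest to a start of Ptp61F, at chr3L:1350628-1351047, 239 bp from an inner start. It had a signal of 227 at rank 5386 and ranks of 15940, 4827 and 5148 in replicates 1, 2 and 3, so replicate 1 placed it far lower than the others did. Genes of the rhomboid family, which encode proteases of EGF receptor signalling, held the nearest starts of 3 of the 8 peaks. Besides ru these were rho, with a summit 57 bp from its start, a signal of 309 and replicate ranks of 2714, 5407 and 4264, and stet, with a summit 543 bp from its start and a signal of 246. The remaining peaks had signals of 226 to 256 and were nearest to indra, CG9166, tRNA:Glu-CTC-3-1 and SA2, a cohesin subunit gene. The weakest, at rank 5425 with a signal of 226, was also the weakest optimal peak of the 8 pathway genes.

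For Ptp61F the strongest peak is shown, which held none of the motifs searched, beside the peak at its own inner start, where capitals mark TATCGATA, the recognition sequence of the promoter factor DREF, centred 55 bp to the left of the summit. Both are on the plus strand of release 6.

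Ptp61F intron, chr3L:1368230-1368380: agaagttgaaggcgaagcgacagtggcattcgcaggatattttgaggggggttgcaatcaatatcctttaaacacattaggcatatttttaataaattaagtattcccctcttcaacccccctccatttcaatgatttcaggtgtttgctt

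Ptp61F inner start, chr3L:1350763-1350913: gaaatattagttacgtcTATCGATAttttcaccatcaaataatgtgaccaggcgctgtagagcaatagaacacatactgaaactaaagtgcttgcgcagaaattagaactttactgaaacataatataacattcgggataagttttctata

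**Figure D3:**
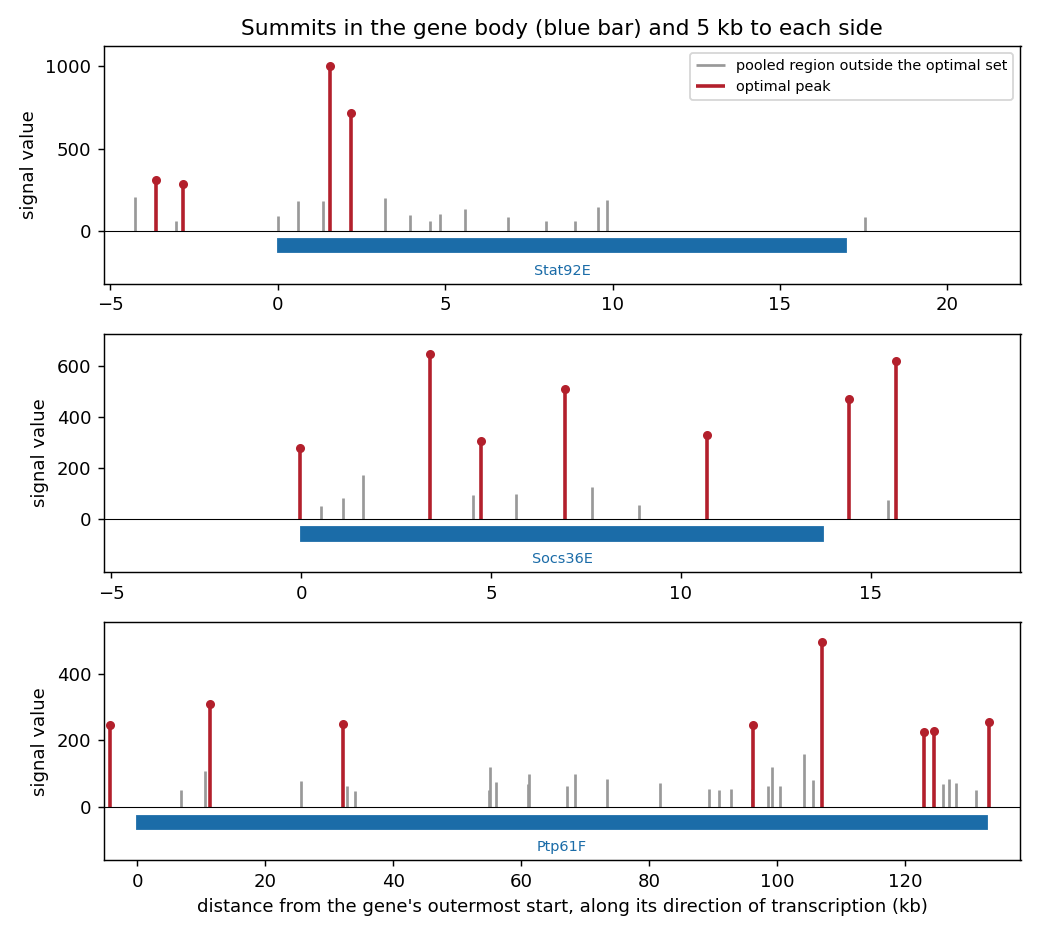
Signal value of pooled caup-eGFP regions at Stat92E, Socs36E and Ptp61F, plotted against the distance from the outermost start along the direction of transcription, with the gene body as a blue bar. The strongest Stat92E peak, with a signal of 1004, stands just inside the gene, the 7 Socs36E peaks spread over its whole window, and the 8 Ptp61F peaks lie towards both ends of a far longer gene.

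Replicate support differed among the peaks of the 3 genes. Of the 19 optimal peaks, 11 (57.9%) had their summit inside one of the 6056 strongest regions of all 3 replicates and the other 8 in those of 2 replicates, while 62.7% of all 6056 optimal peaks had it in all 3. The counts in all 3 were 3 of 4 at Stat92E, 6 of 7 at Socs36E and 2 of 8 at Ptp61F. The replicate missing from the 8 peaks was not always the same. The peak of the upd interval was in the top list of all 3.

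**Figure D4:**
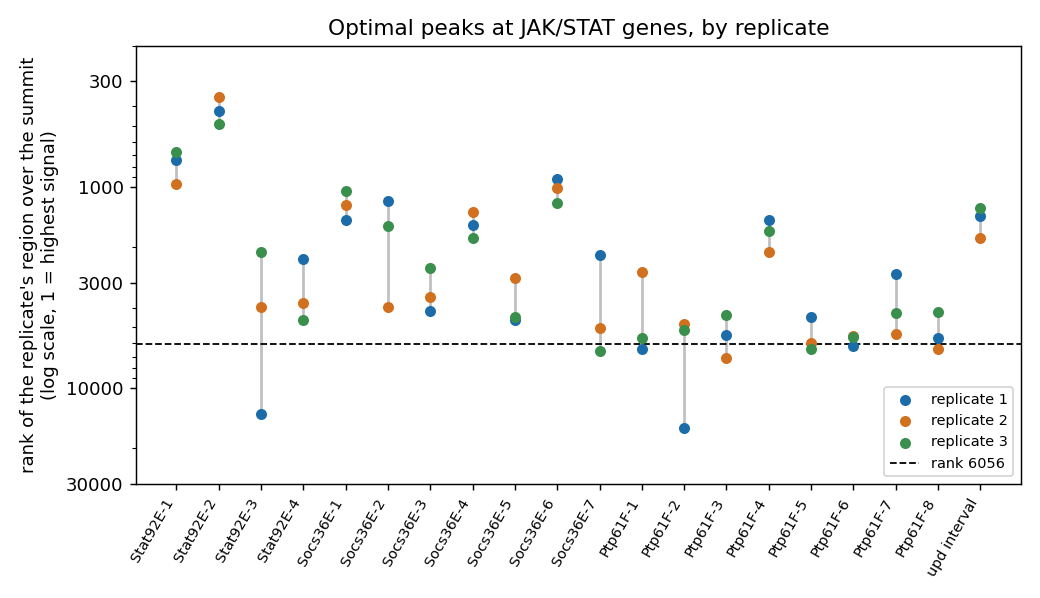
Rank, in each of 3 replicates, of the region over each of the 19 optimal summits at Stat92E, Socs36E and Ptp61F and over the summit between upd3 and upd1, on a log axis with rank 1 at the top; peaks of a gene are numbered by position from left to right on the arm. The strongest peaks of Stat92E (422, 359 and 490) and Socs36E (916, 1017 and 1201) have close ranks, and most Ptp61F peaks have at least 1 replicate below the dashed line at rank 6056.

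As a set the 19 peaks resembled the optimal peaks as a whole. Their median signal was 308, against 333 over all 6056 peaks, and the median width was 420 bp in both. Their median GC content was 38.3%, against 37.8%. A summit within 1 kb of the start of any gene was found for 11 of 19 (57.9%), against 61.1% of all peaks. Summits in introns away from any start made up 7 of 19 (36.8%), against 28.3%, and none of the 19 was intergenic, against 8.82%, which the choice of windows around genes in part fixes. Within 1 kb of a start of the gene itself lay 2 peaks at Stat92E, 1 at Socs36E and 1 at Ptp61F.

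Over all genes the share with an optimal summit ran from 34.4% in the class of the shortest windows to 73.5% in that of the longest, so each gene was set beside the genes of its class among 10 classes of window length. The class of Stat92E and Ptp61F is broad, from 24.6 to 1976 kb, so their shares come from genes of very different length. The share of genes with an optimal summit was 57.7% in the class of upd1, 55.4% in that of upd2 and 68.3% in the class shared by upd3, dome, hop and Socs36E. In each of these classes more genes had a peak than not. At Stat92E, with a window of 27 kb, 26.3% of 1395 genes in its class had at least 4 summits. Of the 3 genes with peaks, Socs36E had the smallest share of genes in its class with as many. Its window of 23.7 kb is near the long end of that class, 16.5 to 24.6 kb, so most genes beside it had shorter windows.

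**Figure D5:**
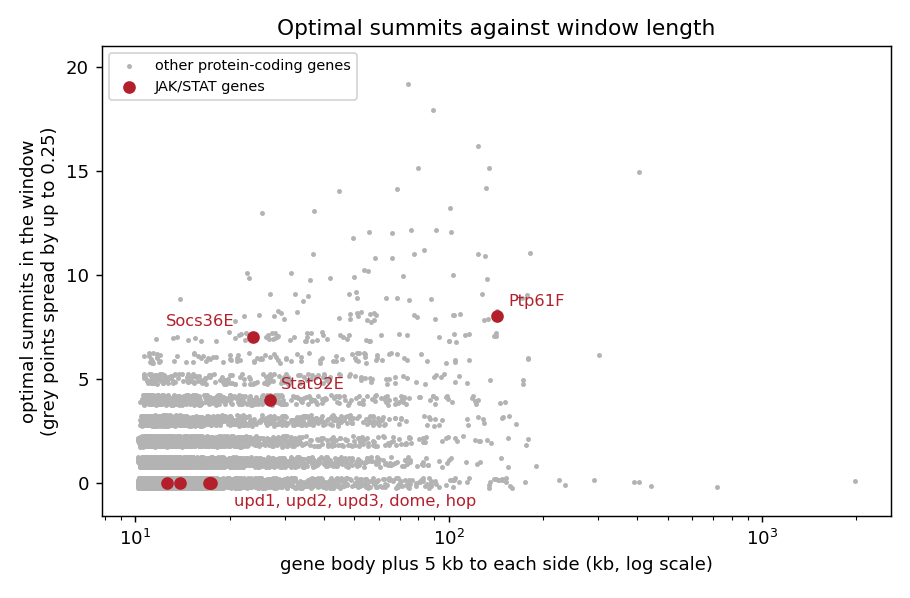
Number of optimal summits in the gene body plus 5 kb against the length of that window on a log axis, for the 8 JAK/STAT genes in red and the other protein-coding genes in grey, with grey points spread vertically for visibility. Socs36E, with 7 summits in 23.7 kb, lies near the upper edge for its length, Stat92E with 4 and Ptp61F with 8 lie within the cloud, and the other genes lie at 0.

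Short motifs were searched on both strands within 100 bp of each summit, as a description of letters and not of binding. A STAT palindrome, TTCNNNGAA or TTCNNNNGAA, was found at 3 of the 19 summits (15.8%), against 11.1% of all optimal summits and 12.2% of windows of the same length centred on the 19252 start sites of protein-coding genes. The 3 were the intronic Socs36E peak described above, with both forms, and 2 Ptp61F peaks. Those near indra and CG9166 held TTCGCAGAA and TTCAGAGAA, each with 3 bases between the arms. No Stat92E summit had one. Among the 13 peaks found in the top lists of both other replicates when replicate 3 was left out, the share was 7.69%. This is below the 11.1% of all optimal summits, which were not filtered in this way, so the order of these shares rests on 1 or 2 peaks. The Iroquois palindrome ACANNTGT was found at 3 of 19 (15.8%), against 11.5% of all optimal summits and 8.33% of start windows. These 3 were 1 at each gene: ACATATGT at Stat92E and Socs36E, and ACAGTTGT at the Ptp61F peak near stet.

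Of promoter motifs, TATCGATA and GGTCACAC were each found at 1 of 19 summits (5.26%), against 3.62% and 2.81% of all optimal summits and 6.45% and 5.68% of start windows. ACACTG was found at 6 of 19 (31.6%), against 18.3% of optimal summits and 14.2% of start windows, and GAGAG, the GAGA factor sequence, at 7 of 19 (36.8%), against 25.9% and 25%. The GGTCACAC match, at the Socs36E peak near kel, overlaps an ACACTG match. With 19 summits, a difference of 1 summit moves each of these shares by 5.26 percentage points.

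Over whole windows the STAT palindrome with 3 bases between the arms was densest at Socs36E among the 8 genes, with 22 matches or 9.27 per 10 kb. The form with 4 bases occurred there 20 times, or 8.42 per 10 kb. Over the 6 chromosome arms these densities were 3.19 and 3.29 per 10 kb. The second form was densest at dome, which had no optimal peak in its window, with 16 matches at 9.16 per 10 kb. The first form had 6 matches there, at 3.44 per 10 kb. Stat92E had 4.08 and 2.59 per 10 kb, and Ptp61F had 3.71 and 3.99. A STAT palindrome lay within 100 bp of 1 of the 7 optimal summits at Socs36E, 2 of the 8 at Ptp61F and none of the 4 at Stat92E. Counted the other way, few of the palindromes in a window lay near a summit. Of the 42 at Socs36E, 2 (4.76%) lay within 100 bp of an optimal summit, and such stretches made up 5.93% of the window. At Ptp61F 2 of 110 (1.82%) did so, with 1.13% of the window covered, and at Stat92E none of 18 did, with 2.98% covered.

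Beyond the 8 genes, 29 further genes tied to the pathway were examined under the same rule, and 17 (58.6%) had an optimal summit, a share close to the 54.4% of all protein-coding genes. Among 14 regulators 9 (64.3%) had one. The highest signal was at Su(var)2-10, the gene of the fly PIAS SUMO ligase, with 1997 at rank 97, 51 bp from the start of the neighbouring gene GstE13. It was followed by et with 858, the cyclin-dependent kinase gene Cdk4 with 639 and the transcriptional repressor gene ken with 567. No optimal summit lay in the windows of Socs44A, E(bx), CycD, Hrs and BRWD3. For E(bx), which encodes a chromatin remodelling subunit, the strongest region ranked 1091 in replicate 1 and 2275 in replicate 2, both at the start of the gene, where replicate 3 and the pooled list held no region. The strongest regions of replicate 3 and of the pooled list, at ranks 7711 and 10327, were other sites upstream of it, and the reason for the gap was not tested. Socs16D, a second gene of the Socs family, had a summit 19 bp from its own start with a signal of 229. The 3 Socs genes examined thus had 7 peaks at Socs36E, 1 at Socs16D and 0 at Socs44A. These counts are not adjusted for window length, and only 2 of the 7 at Socs36E were nearest to its own start.

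Of 15 genes known as targets of the pathway, 8 (53.3%) had an optimal summit, a share close to the 54.4% of all protein-coding genes. The highest signals were at crb, the gene of the apical polarity protein Crumbs, with 1164 at rank 315, and at trh, the tracheal regulator gene trachealess, with 827 at rank 615. They were followed by zfh1, a gene of mesoderm and gonad, with 660, and chinmo, a gene of stem cell maintenance, with 655. The trh summit lay 348 bp from the start of trh, whereas the crb summit lay 4956 bp upstream of crb and 50 bp from the start of the neighbouring gene Uck. No optimal summit lay in the windows of TotA, eve, run, ftz, vvl, kni and ems, several of them segmentation genes.

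The protein-coding genes most like Stat92E, by the distance between log10 ranks of the strongest region in the window over the 3 replicates and among 10746 genes with a region in each, were Diap1, Eip63F-1 and mod(mdg4). Diap1, which encodes an inhibitor of caspases, had ranks of 441, 363 and 521 in replicates 1, 2 and 3, against 422, 359 and 490 for Stat92E, at a distance of 0.0331. Eip63F-1 had ranks of 387, 370 and 458 at a distance of 0.0495, and mod(mdg4), a chromatin insulator gene, had 389, 390 and 501 at 0.0514. The likeness is of signal rank alone.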

How the data were processed

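ChIP-seq region lists of 3 replicates, the pooled list and the optimal list, all on dm6, were used as the authors deposited them. The signal of each region is the authors' own value. Not given in the sources used here: the scale of that value, the aligner, the peak caller and the threshold for reproducible peaks. Per the deposited text notes, each replicate list was made from its own alignment and 1 further alignment that all 3 share. The other deposited column used is the summit offset from the region's start. Lists on an older build were not used.

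Genes and start sites came from Ensembl release 115 and sequence from the RefSeq release 6 genome, which is dm6. Of 29 further pathway genes, 2 were matched through older symbols (asrij and RhoGEF64C). The pathway genes and lists were chosen with earlier results of these data known. The text names every pathway gene with its peaks, the genes whose starts are nearest, up to 4 further regulators and 4 targets of highest signal with every one lacking a peak, and the 3 genes most like Stat92E; other genes were named after their values were seen. Counts and ranks were computed with Python 3.11.15, numpy 2.4.6 and pandas 2.3.3 and tested on simulated data. Alternatives were windows of 1 and 10 kb, the stronger peaks only, merged peaks, any overlap, nearest start only, longer replicate lists, other motif windows and each replicate left out. No test was possible with 1 group.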

Additional observations from a re-analysis of the deposited data

How the results depend on the processing

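Widening the windows to 10 kb raised the pathway genes with a peak to 6, adding upd3, dome and hop, and the pathway peaks to 27. Of these 27 peaks, 18 were found in all 3 replicates, while 62.7% of all optimal peaks were. The share of all genes with a peak rose to 68.1%, while windows of 1 kb gave 34.1% of all genes. With the 3028 strongest optimal peaks alone, 7 pathway peaks and 38.4% of all genes were left. Counting only summits whose nearest start was the gene's own left 5 pathway peaks, 11 further pathway genes and 24.1% of all genes. With replicate lists made 2 times as long, 17 of the 19 peaks were in all 3. Longer lists can only raise such a count, and the share of all optimal peaks in them was not counted. Each replicate was also left out in turn by keeping only optimal peaks found in the top lists of both other replicates, with no new peak calling. Under this filter the share of all genes with a peak was 46.5% to 46.8%. The pathway genes with a peak stayed at 3 and their peaks numbered 13 to 15. Merging peaks and counting any overlap left the 3 genes and 19 peaks as they were. The share of pathway summits with a STAT palindrome was 7.69% to 15.4% without 1 replicate, against 11.1% of all optimal summits, and fell below that share without replicate 3. It was 10.5% within 50 bp, against 5.99% of all, and 31.6% within 200 bp, against 20.8%.

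No paired analysis was possible because there is 1 group. The absence of a peak here is an absence from a ranked list at an unknown depth, not of binding. The 3 replicate lists share 1 further alignment, the replicates come from 1 transgenic line, and an untagged line was not analysed here. Whole embryos of mixed ages cannot tell weak binding in all cells from strong binding in a few.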
